A study of Mus musculus with 6 samples.

Results

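The 10 genes described here encode the main potassium channel subunits of heart muscle: Kcnd2, Kcnd3, Kcnip2, Kcna5, Kcnq1, Kcne1, Kcnh2, Kcnj2, Kcnj3 and Kcnj5. They were followed through every probe set that the platform annotation assigns to 1 of them and to no other gene, 23 of 45037 probe sets in all. The platform names 18193 genes in this way. Expression had been measured on 6 Affymetrix 3' arrays, using hearts of C57BL/6 mouse embryos of stage E12.5. The genotype label was wildtype for 3 arrays and Rhau KO for the other 3, and no further treatment or allele is named for either group. Rhau is an older name of Dhx36, a helicase that unwinds G-quadruplexes, which are stacked structures of guanine-rich RNA and DNA. The Cre line or promoter behind the deletion, the deleted part of the gene and the number of litters are not stated in the sources used here. The series text speaks of hearts dissected from each group and 1 RNA sample per array. The p-values therefore measure the spread between these samples, which is not known to be a spread between single embryos.

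Potassium channels carry the outward current that ends the cardiac action potential and holds the resting potential. Kcnd2 and Kcnd3 form the pore of the fast transient outward current, and Kcnip2 is its calcium-binding accessory subunit. Kcna5 forms the ultrarapid delayed rectifier, a current typical of atrial muscle in the human heart. Kcnh2 forms the rapid delayed rectifier, and Kcnq1 with its small partner Kcne1 the slow one. Kcnj2 carries the inward rectifier current that sets the resting potential, while Kcnj3 and Kcnj5 together form the acetylcholine-gated channel of atrial and nodal cells.

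Because the targeted protein acts on guanine-rich sequence, the stretch of 250 bases before the annotated start was examined in the 8 genes that the RefSeq promoter table holds (build GRCm38.p6). Kcne1 and Kcnq1 were not matched. A G-quadruplex motif, defined as 4 runs of at least 3 G with 1 to 7 bases between runs and searched on both strands, lay in 4 of these 8 windows, those of Kcnd2, Kcnj5, Kcnh2 and Kcnip2. The same motif lay in 16.7% of 32851 windows of this length in the whole table. G and C made up 68.8% of the Kcnd2 window, 58% of the Kcnj5 window, 73.6% of the Kcnh2 window and 66.8% of the Kcnip2 window, against a median of 52.4% over all windows. In Kcnd2 the match is on the strand opposite to the gene, from base 244 to base 210 before the start. In Kcnj5 it is on the gene's own strand, from base 71 to base 34 before the start. Kcnh2 has 2 matching stretches on its own strand, between bases 182 and 56 before the start. The windows of the genes with a match and a difference between the labels, and that of Kcna5, which differs without a match, are shown 5′ to 3′ along the gene, with capitals for the matching stretches.
Kcnd2 on the + strand, chr6:21215096-21215345: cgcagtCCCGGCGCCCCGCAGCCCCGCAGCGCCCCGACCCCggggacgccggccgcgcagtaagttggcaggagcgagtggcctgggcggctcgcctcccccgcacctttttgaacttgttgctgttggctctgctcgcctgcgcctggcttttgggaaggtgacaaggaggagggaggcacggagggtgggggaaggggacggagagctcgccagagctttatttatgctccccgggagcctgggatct
Kcnj5 on the - strand, chr9:32344345-32344594: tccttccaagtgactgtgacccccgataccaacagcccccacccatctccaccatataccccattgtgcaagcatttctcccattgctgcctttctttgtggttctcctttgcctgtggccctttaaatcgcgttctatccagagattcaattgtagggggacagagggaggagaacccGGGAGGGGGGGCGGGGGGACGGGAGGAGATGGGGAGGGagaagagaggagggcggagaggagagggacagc
Kcnh2 on the - strand, chr5:24329592-24329841: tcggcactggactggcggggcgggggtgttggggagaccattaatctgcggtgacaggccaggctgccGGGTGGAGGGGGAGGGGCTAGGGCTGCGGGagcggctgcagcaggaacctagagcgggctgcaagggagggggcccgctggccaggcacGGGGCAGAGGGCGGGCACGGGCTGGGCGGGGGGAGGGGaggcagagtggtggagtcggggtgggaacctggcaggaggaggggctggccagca
Kcna5 on the - strand, chr6:126535556-126535805: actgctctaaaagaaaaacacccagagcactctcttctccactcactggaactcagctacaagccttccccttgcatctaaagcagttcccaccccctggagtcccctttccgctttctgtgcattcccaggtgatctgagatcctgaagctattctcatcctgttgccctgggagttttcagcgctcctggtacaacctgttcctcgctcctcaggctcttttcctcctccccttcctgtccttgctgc
The core of the Nkx2-5 binding site, AAGTG on either strand, lay in 3 of the 8 windows (Kcnd3, Kcnj5 and Kcnip2) and in 40.7% of all windows. The palindrome bound by Iroquois factors, ACANNTGT, lay in 0 of the 8 and in 6.31% of all windows. The AAGTG core can lie inside a match of either other motif, so these counts are not independent. These matches describe letters only.

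The targeted gene ran against its label. On the brightest Dhx36 probe set the arrays labelled wildtype read 8.99, 8.88 and 8.71, and those labelled Rhau KO 10.10, 10.48 and 10.23. All 3 probe sets of Dhx36 were higher in the arrays labelled Rhau KO, by between 0.90 and 1.41 on the log2 scale. The largest adjusted p was 2.67e-04 by limma, and no array of one label overlapped the other. A probe set outside the deleted part would check nothing, and that part is not known here. The arrays are therefore named by the label they carry, and each direction below is that of the labels as deposited. Sex-linked transcripts varied between arrays of 1 label and also differed between the labels. For replicates 1 to 3, Xist read 13.85, 13.82 and 13.47 in the arrays labelled wildtype and 13.14, 12.37 and 5.10 in those labelled Rhau KO. Y-linked Eif2s3y read 1.06, 0 and 9.66 in the former and 10.30, 10.83 and 11.12 in the latter. Eif2s3y and the Y-linked Kdm5d and Uty were higher on every array labelled Rhau KO than on any labelled wildtype, and Xist was lower. Sex-linked signal and label are therefore confounded, and their parts in the channel differences cannot be told apart. Xist was high together with Y-linked signal on 3 arrays, replicate 3 of the wildtype label and replicates 1 and 2 of the Rhau KO label. Such a sample cannot be read as RNA of a single male or female embryo, and the reason was not tested. Cardiomyocyte markers were high on every array: all 12 listed genes were above the filter, 0 rose and 4 fell (Myh6 by 0.35, Ryr2 and Tnni3 by 0.26 each and Myl7 by 0.21). Their summed linear signal was 287618 to 299789 in wildtype-labelled hearts and 248764 to 285083 in hearts labelled Rhau KO. The Ryr2 call was lost without replicate 1, 2 or 3 of the wildtype label (-0.23, -0.28 and -0.28), and that of Myl7 in 5 of 6 such fits, named with Kcna5. Precision is limited by the 3 arrays per label.

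Potassium channel genes moved in both directions between the labels. Kcnd2 was 3.62-fold higher and Kcne1 1.79-fold higher in the arrays labelled Rhau KO. Kcna5 was 1.79-fold lower, Kcnj5 1.64-fold lower, Kcnq1 1.38-fold lower and Kcnh2 1.19-fold lower, each for the probe set of highest mean signal. Kcnd3 and Kcnj3 were tested and did not pass. The only Kcnj2 probe set and all Kcnip2 probe sets lay below the filter on dim signals. That filter left out the lowest 40% of probe sets by their mean over all 6 arrays, below a log2 signal of 5.90. It kept 12 of the 23 probe sets, in 8 of the 10 genes. Of these 12, 4 were called higher and 4 lower (limma with trend, Benjamini-Hochberg adjustment over 27022 tested probe sets, adjusted p at most 0.05). Calls were made for 13.6% of all tested probe sets, 6.75% higher and 6.88% lower. With each array centred on its median the 12 gave 3 higher and 4 lower, and all probe sets 1007 higher and 2528 lower in place of 1824 and 1858. The median size of the log2 difference was 0.56 over the 12 and 0.17 over all tested probe sets. The 12 are not independent, since probe sets of 1 gene read the same transcripts, and 1 of Kcnd2 passed the filter through its high group, so these counts are a description. Groups did not overlap for 10 of the 12, 6 with the Rhau KO label above and 4 with it below, against 33.9% of all tested probe sets, 19.4% above and 14.5% below. Leaving out replicate 1 of either label brought the lower count to 2.

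**Figure D1:**
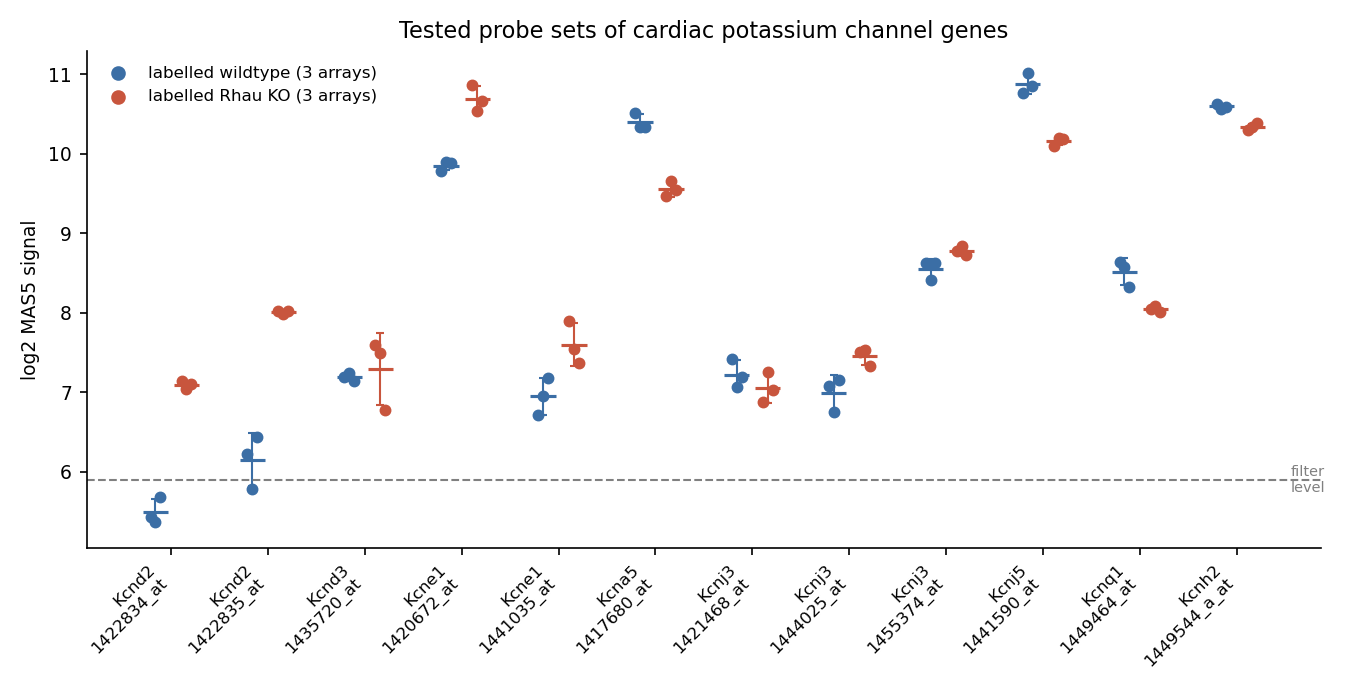
Log2 MAS5 signal of the 12 tested probe sets on each array, with the mean (line) and SD (bar) of the 3 arrays of each label; the dashed line is the filter level of 5.90. The points of the 2 labels are separate for all but the Kcnd3 probe set and 1421468_at of Kcnj3.

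Kcnd2 showed the largest difference among the tested probe sets of the genes described here. On probe set 1422835_at its log2 signal was 6.23, 5.79 and 6.44 in replicates 1 to 3 labelled wildtype and 8.02, 7.98 and 8.02 in those labelled Rhau KO. Every array labelled Rhau KO was thus above every array labelled wildtype, with means of 8.01 ± 0.02 and 6.15 ± 0.33 (SD, n = 3 each). The difference was 1.85 (SE 0.194, 95% interval 1.42 to 2.28, adjusted p = 2.39e-04 by limma). Probe set 1422834_at read 5.43, 5.37 and 5.68 against 7.14, 7.04 and 7.10, a difference of 1.60 (SE 0.216, adjusted p = 0.00109). Its mean of 5.49 under the wildtype label lay below the filter level, so it entered the test through the arrays labelled Rhau KO. Both calls held with each array left out, at differences from 1.67 to 2.00 and from 1.54 to 1.69. With 64 added to the linear signal the differences were 1.24 and 0.88, both still called. Kcnd2 is also a channel of neurons. Of 8 neural crest and neuronal markers on the array, 6 were tested, and Ednrb (0.78), Elavl4 (0.63) and Gap43 (0.32) rose while 0 fell. Elavl4 kept its call only in the fit without replicate 3 of the wildtype label, and Gap43 only in that without replicate 3 of the Rhau KO label. Without any other single array they stood at 0.51 to 0.67 and 0.27 to 0.34. Of the tested markers without a call, Stmn2 stood at 0.35, Sox10 at 0.04 and Tubb3 at -0.38. Prph (-1.47) and Th (-0.30) were below the filter. The summed linear signal of the 8 markers ran from 3282 to 3337 in wildtype-labelled hearts and from 4832 to 5082 in hearts labelled Rhau KO. Ednrb, at means of 11.04 and 11.82, was the brightest of them and weighs most in that sum. No marker was at 0, and the part of these markers in the Kcnd2 difference was not tested. In whole hearts, a shift in the share of a cell type and a shift in RNA per cell cannot be told apart.

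Other Kcnd2 probe sets were dim. Probe set 1450773_at read 5.31, 3.94 and 4.54 in wildtype-labelled hearts and 7.14, 6.72 and 7.05 in hearts labelled Rhau KO, a difference of 2.37. With no filter it passed as well (adjusted p = 0.00695 by limma). Probe set 1447764_at ran the other way, at 2.68, 2.97 and 2.99 against 1.90, 1.54 and 1.53, and with no filter it did not pass (adjusted p = 0.421 by limma). All of its values were far below the filter level.

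Kcnd3, the other pore gene of this current, did not pass. Probe set 1435720_at read 7.19, 7.24 and 7.14 in wildtype-labelled hearts and 7.60, 7.50 and 6.78 in hearts labelled Rhau KO. Replicate 3 labelled Rhau KO was below all arrays labelled wildtype and the others were above them. The difference was 0.10 (95% interval -0.37 to 0.58, adjusted p = 0.802 by limma). It was -0.05 without replicate 1 labelled Rhau KO and 0.36 without replicate 3. In the main fit the interval excludes a difference as large as that of Kcnd2. With Y-linked signal as a covariate the Kcnd3 difference was 0.77 (SE 0.430), too imprecise to exclude this. In the arrays in which Xist and Y-linked transcripts were both high it was 0.41. The remaining Kcnd3 probe sets were below the filter, with means under the wildtype label of 4.47, 3.95 and 0.50 and under the Rhau KO label of 5.31, 5.07 and 3.60. The last of these, 1447513_at, was listed at 0 on 2 arrays labelled wildtype, so no fold is given.

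Kcnip2 was dim on all 3 of its probe sets, and none was tested. The brightest by mean, 1425870_a_at, read 4.39, 4.49 and 4.14 in wildtype-labelled hearts and 4.72, 2.81 and 3.25 in hearts labelled Rhau KO, and the groups overlapped. Probe set 1421783_a_at read 2.26, 2.78 and 2.94 against 4.93, 3.45 and 4.91, higher on every array labelled Rhau KO. Probe set 1436275_at overlapped, with means of 3.25 and 2.81. The 3 probe sets thus pointed in different directions, all at signals below the filter level.

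Kcne1, the small subunit that slows the opening of the Kcnq1 channel, was higher on both of its probe sets. Probe set 1420672_at read 9.78, 9.89 and 9.88 in wildtype-labelled hearts and 10.86, 10.54 and 10.66 in hearts labelled Rhau KO. The means were 9.85 ± 0.06 and 10.69 ± 0.16 (SD, n = 3 each), and the groups did not overlap. The difference was 0.84 (SE 0.085, 95% interval 0.65 to 1.03, adjusted p = 2.05e-04 by limma). Leaving out any 1 array gave 0.75 to 0.91, always with a call. Probe set 1441035_at read 6.72, 6.95 and 7.18 against 7.89, 7.54 and 7.37, a difference of 0.65 with adjusted p = 0.0472 by limma. That second call is close to the threshold. It was lost without replicate 1, 2 or 3 labelled wildtype (0.53, 0.65 and 0.76) and without replicate 1 or 2 labelled Rhau KO (0.50 and 0.68), with adjusted p between 0.0501 and 0.154.

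Kcnq1, the pore subunit of the same slow current, was lower on its single probe set. It read 8.64, 8.58 and 8.32 in wildtype-labelled hearts and 8.05, 8.09 and 8.01 in hearts labelled Rhau KO, without overlap, at means of 8.51 ± 0.17 and 8.05 ± 0.04 (SD, n = 3 each). The difference was -0.47 (SE 0.118, 95% interval -0.73 to -0.20, adjusted p = 0.0267 by limma). The call was lost without replicate 1 or 2 labelled wildtype (-0.40 and -0.43) and without replicate 1, 2 or 3 labelled Rhau KO (-0.47, -0.48 and -0.45), with adjusted p from 0.0529 to 0.101. With Y-linked signal as a covariate the difference was -0.16 (SE 0.249). In the 3 arrays in which Xist and Y-linked transcripts were both high it was -0.25. Label and Y-linked signal are confounded, so these shifts cannot be assigned to either.

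Kcnh2, the channel of the rapid delayed rectifier and a gene of inherited long QT syndrome, showed the smallest called difference among the genes described. Its probe set read 10.63, 10.56 and 10.59 in wildtype-labelled hearts and 10.30, 10.33 and 10.38 in hearts labelled Rhau KO. The arrays of the labels did not overlap, at means of 10.59 ± 0.03 and 10.34 ± 0.04 (SD, n = 3 each). The difference was -0.25 (SE 0.060, 95% interval -0.39 to -0.12, adjusted p = 0.0194 by limma). The call was lost without replicate 1 or 3 labelled wildtype (-0.24 and -0.26) and without replicate 1 labelled Rhau KO (-0.23), with adjusted p up to 0.076.

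Kcna5, the ultrarapid channel, was lower on its single probe set. It read 10.51, 10.34 and 10.33 in wildtype-labelled hearts and 9.47, 9.66 and 9.54 in hearts labelled Rhau KO. The highest array labelled Rhau KO was below the lowest labelled wildtype, and the means were 9.55 ± 0.10 and 10.39 ± 0.10 (SD, n = 3 each). The difference was -0.84 (SE 0.079, 95% interval -1.02 to -0.66, adjusted p = 1.25e-04 by limma), and it stayed between -0.89 and -0.78, with a call, when any 1 array was left out. Of 7 atrial marker genes tested, 1 rose, Pam by 0.43, and 3 fell. Those were Stard10 by 1.24, Sln, an inhibitor of the calcium pump, by 0.78, and Myl7, the atrial myosin light chain, by 0.21. Without a call, Nppa stood at 0.03, Nr2f2 at 0.02 and Myl4 at -0.14. The Myl7 call was lost without replicate 1, 2 or 3 labelled wildtype, and likewise without replicate 1 or 2 labelled Rhau KO, at differences from -0.23 to -0.15. The summed linear signal of the atrial markers ran from 95253 to 99552 in wildtype-labelled hearts and from 82332 to 94700 in hearts labelled Rhau KO, with no marker at 0. Their part in the Kcna5 difference was not tested.

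Kcnj5, a pore subunit of the acetylcholine-gated channel, was lower on its bright probe set 1441590_at. It read 10.76, 11.01 and 10.85 in wildtype-labelled hearts and 10.10, 10.20 and 10.18 in hearts labelled Rhau KO, again without overlap, at means of 10.88 ± 0.13 and 10.16 ± 0.05 (SD, n = 3 each). The difference was -0.71 (SE 0.075, 95% interval -0.88 to -0.55, adjusted p = 2.42e-04 by limma). Each fit without 1 array kept the call, at -0.77 to -0.65. The other Kcnj5 probe set was dim, with means of 5.46 and 5.38, and its groups overlapped. Of the 4 sinus node and conduction markers tested, 0 rose and 2 fell, Tbx3 by 0.46 and Isl1 by 0.39. The Tbx3 call was lost without replicate 2 (-0.35) or 3 (-0.46) labelled wildtype, and likewise without replicate 2 labelled Rhau KO (-0.43). The Isl1 call was lost without replicate 1 (-0.32) or 3 (-0.37) labelled wildtype, and likewise without replicate 1 or 2 labelled Rhau KO (-0.37 each). The summed signal of these markers was 5746 to 6416 in wildtype-labelled hearts and 5267 to 5657 in hearts labelled Rhau KO. None of them was at 0, and their part in the Kcnj5 difference was not tested.

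Kcnj3, the partner of Kcnj5 in that channel, did not pass on any of its 3 tested probe sets. The brightest, 1455374_at, read 8.63, 8.41 and 8.62 in wildtype-labelled hearts and 8.77, 8.84 and 8.72 in hearts labelled Rhau KO. Its groups did not overlap, yet the difference of 0.22 had a 95% interval of -0.0037 to 0.44 (adjusted p = 0.181 by limma). Probe set 1444025_at read 7.08, 6.75 and 7.16 against 7.51, 7.53 and 7.33, a difference of 0.46 (adjusted p = 0.101 by limma). Probe set 1421468_at differed by -0.17, with overlapping groups (adjusted p = 0.584 by limma). Probe set 1444336_at was below the filter at means of 4.09 and 4.40.

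Kcnj2, the inward rectifier of the resting potential, had a single probe set at the bottom of the scale. It read 0.76, 0.54 and 1.23 in wildtype-labelled hearts and 1.75, 0.98 and 2.86 in hearts labelled Rhau KO. All 6 values lay far below the filter level, and the groups overlapped. No test was made of this transcript.

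**Figure D2:**
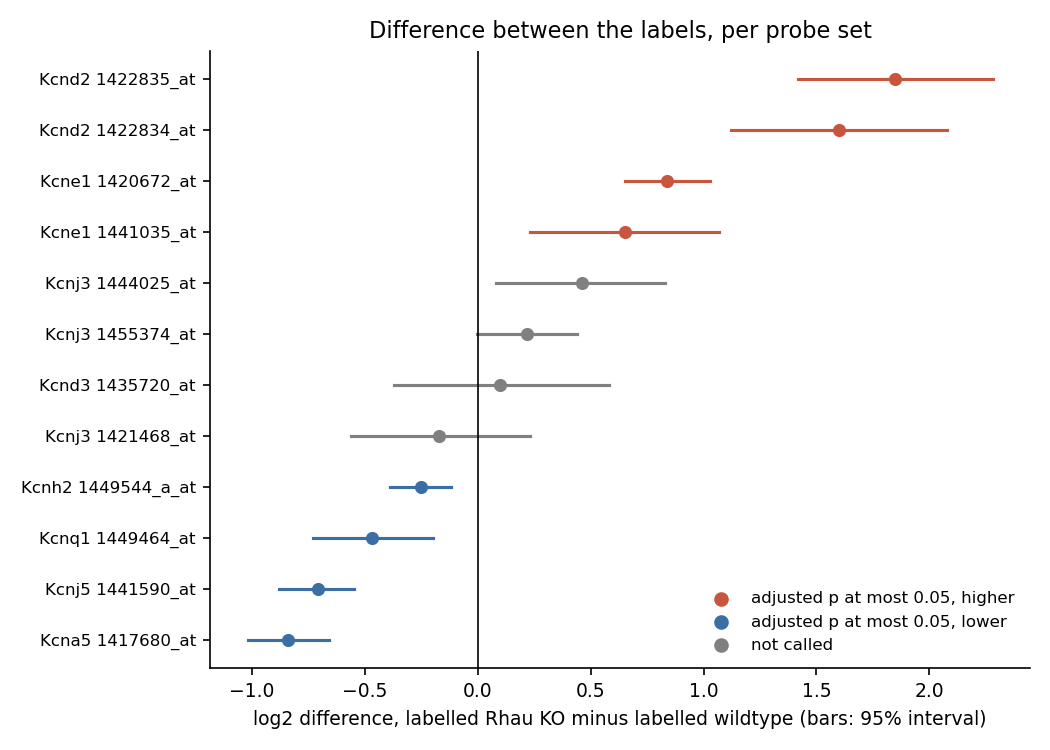
Log2 difference, labelled Rhau KO minus labelled wildtype, with its 95% interval from limma for each of the 12 tested probe sets. Both Kcnd2 probe sets (1.85 and 1.60) lie to the right of all others, and Kcna5 at -0.84 is the lowest.

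**Figure D3:**
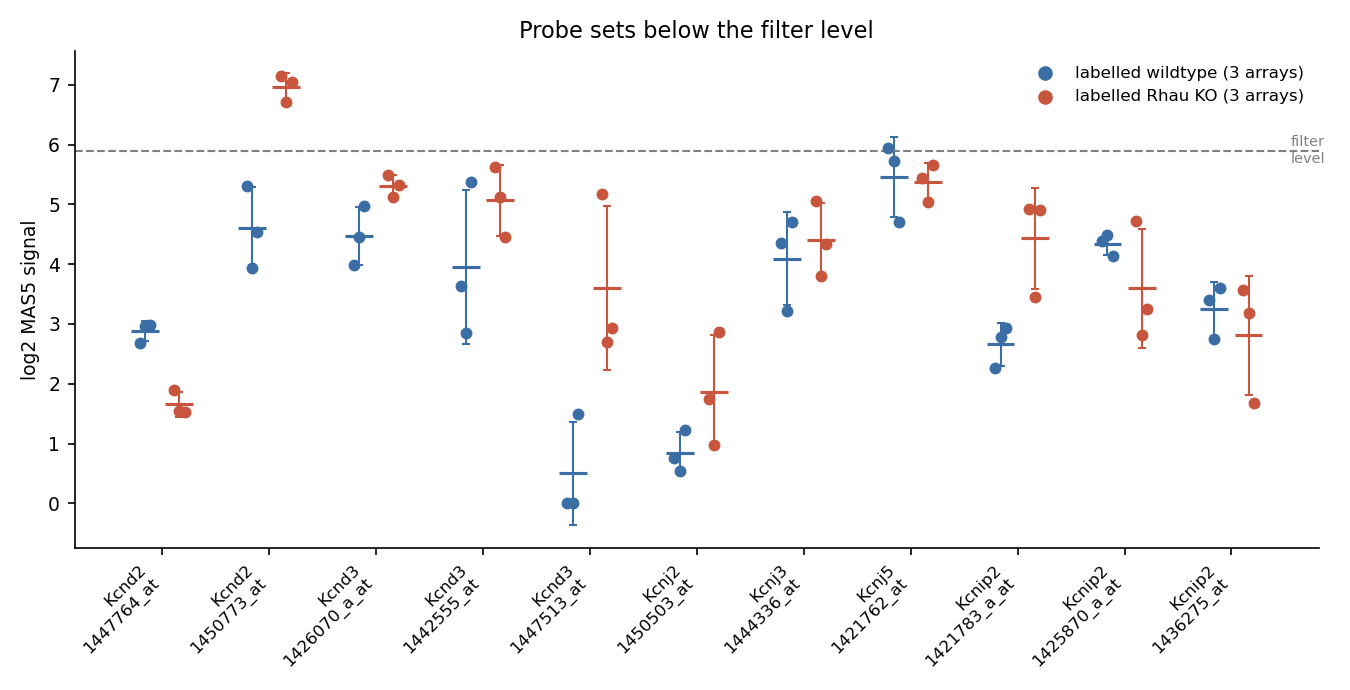
Log2 MAS5 signal of the 11 probe sets whose mean over 6 arrays was below the filter level of 5.90 (dashed), with the mean and SD of each label. Only 1450773_at of Kcnd2 rises above the dashed line on all 3 arrays labelled Rhau KO.

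Subunits that build 1 current were then set against each other within each array, so that a shift of the whole array cancels. Probe sets differ in how strongly they bind, so only the change of each within-array value between the labels is read. Signal of Kcne1 minus that of Kcnq1 was 1.14, 1.31 and 1.56 in wildtype-labelled hearts and 2.81, 2.45 and 2.65 in hearts labelled Rhau KO, a change of 1.31. Signal of Kcnj3 minus that of Kcnj5 was -2.13, -2.60 and -2.23 against -1.33, -1.36 and -1.46, a change of 0.94. Signal of Kcnd3 minus that of Kcnd2 was 0.96, 1.45 and 0.70 against -0.43, -0.48 and -1.23, a change of -1.75. In these 3 pairs the arrays of the 2 labels did not overlap. Each change follows from the differences of its genes given above, so it is no separate evidence. The share of other gene pairs without overlap was not computed. Signal of Kcnip2 minus that of Kcnd2 changed by -2.60, with the Kcnip2 probe set below the filter. The Kcnip2 probe sets point in different directions, so nothing is read from this pair. With 64 added to the linear signal the pairs that hold Kcnd2 changed by -1.16 for Kcnd3 and -1.36 for Kcnip2. The exact two-sided permutation p was 0.1 for each of these 4 pairs, and 0.1 after Benjamini-Hochberg adjustment, which is the smallest that 3 against 3 arrays allow. None can therefore pass 0.05.

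**Figure D4:**
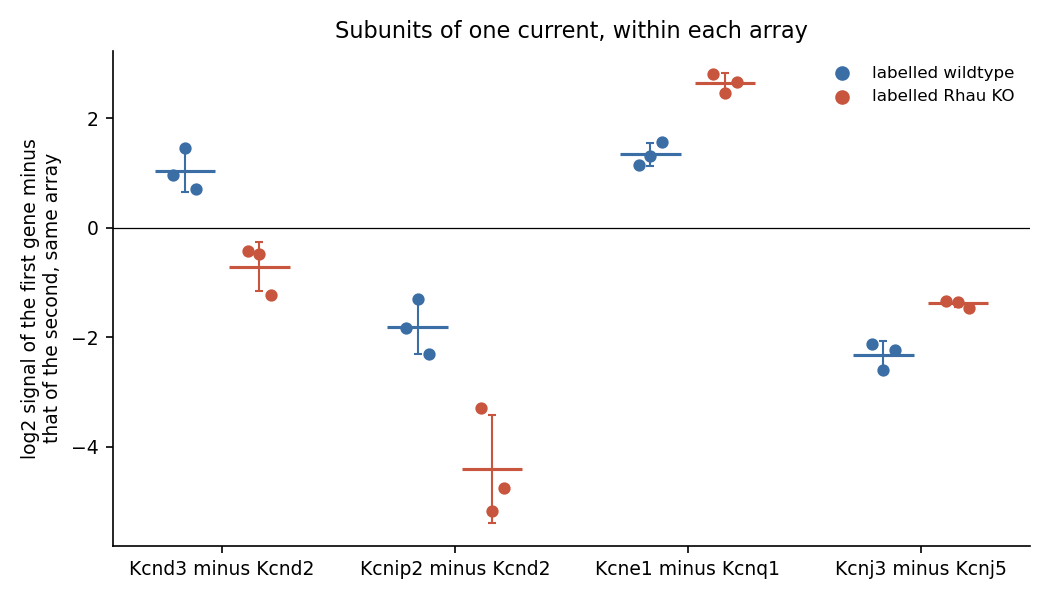
Log2 signal of the first gene minus that of the second on the same array, for 4 pairs of subunits, with the mean and SD of the 3 arrays of each label. The pair Kcne1 minus Kcnq1 moves from a mean of 1.33 to 2.64, and Kcnd3 minus Kcnd2 from 1.04 to -0.71.

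Among the other potassium channel genes, calls were about as frequent as over the whole array. Of 88 listed symbols, 75 had a probe set that names that gene alone. Kcne5 was listed also under its older name Kcne1l, and only Kcne1l had such a probe set. With their brightest probe set, 35 passed the filter on dim signals. Among these 35, 2 rose, 4 fell and 29 did not pass. Over all genes, 16.5% of tested brightest probe sets were called, 6.77% higher and 9.75% lower. By the same count 6 of the 8 tested genes described above were called, 2 higher and 4 lower. Both sulfonylurea receptor genes, whose proteins gate the ATP-sensitive potassium channels, were called, in opposite directions. Abcc9 read 10.94, 10.61 and 10.76 in wildtype-labelled hearts and 11.65, 11.51 and 11.52 in hearts labelled Rhau KO, a rise of 0.79 (adjusted p = 2.14e-04 by limma), and its other probe sets rose by 0.93 each. Abcc8 read 7.95, 8.08 and 7.95 against 6.54, 7.16 and 6.36, a change of -1.31 (adjusted p = 0.00265 by limma), and its other probe set differed by -0.97, at the threshold (adjusted p = 0.05 by limma). Their pore partners did not pass: Kcnj8 differed by 0.83 (adjusted p = 0.0867 by limma) and Kcnj11 by -0.27 (adjusted p = 0.0863 by limma). These pore genes fall outside the naming rule and were chosen after their values were seen. Of 4 tested tandem-pore leak channels, 0 rose and Kcnk3 fell by 0.52, from a mean of 9.48 to 8.95 (adjusted p = 0.00433 by limma). Its other probe sets were below the filter and overlapped between the labels. In the 3 arrays with Xist and Y-linked transcripts both high, Abcc8 stood at -1.10 (adjusted p = 0.0757 by limma) and Kcnk3 at -0.40 (adjusted p = 0.18 by limma), neither with a call.

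Among 7 tested calcium- and sodium-activated channel genes, 1 rose and 2 fell. Kcnmb1, the smooth muscle accessory subunit of the large-conductance channel, fell from 9.42, 9.23 and 9.17 to 8.22, 8.04 and 8.24, by 1.11 (adjusted p = 1.25e-04 by limma). Its other probe set differed by -0.38 with overlapping groups (adjusted p = 0.39 by limma). Kcnn4, the intermediate-conductance channel of red cells, read 7.46, 7.33 and 7.90 against 6.49, 6.50 and 4.64, a change of -1.69 (adjusted p = 0.0278 by limma). In the arrays labelled Rhau KO its mean was 5.88, below the filter level, so it entered the test through the arrays labelled wildtype, where it is high. Without replicate 1, 2 or 3 labelled wildtype it stood at -1.74, -1.80 and -1.52 with no call, and without replicate 3 labelled Rhau KO at -1.07. The other Kcnn4 probe set differed by -0.99 and was not called (adjusted p = 0.0614 by limma). Of 10 tested erythroid markers 7 fell and 0 rose, among them Epb42 (-1.57), Alas2 (-1.39), Slc4a1 (-1.27) and Ermap (-1.13), and their summed linear signal was 93593 to 100018 in wildtype-labelled hearts and 71391 to 89356 in hearts labelled Rhau KO, with none at 0. Of 4 smooth muscle markers 1 fell, Cnn1 by 0.36, and 0 rose. The summed signal of those 4 was 33493 to 36346 against 29523 to 33182, with none at 0. The part of these cells in the Kcnn4 and Kcnmb1 differences was not tested. Kcnmb4 rose by 0.34 (adjusted p = 0.0361 by limma), a call that was kept in only 1 of 6 fits without 1 array, that without replicate 3 labelled Rhau KO. The other 5 gave 0.29 to 0.38. Of 11 other voltage-gated pore genes and 6 other accessory subunit genes tested with limma, 0 passed, with 4 and 0 of them at an unadjusted p under 0.05. The largest differences were 0.82 for Kcnc2 and -0.59 for Kcna7 among the pore genes, and -0.45 for Kcne4 and -0.23 for Kcnab1 among the accessory genes. Kcnc2 passed without replicate 2 labelled wildtype, at 1.09 (adjusted p = 0.0448 by limma). Its mean of 5.84 under the wildtype label lay below the filter level, so it entered the test through the arrays labelled Rhau KO, where it is high.

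**Figure D5:**
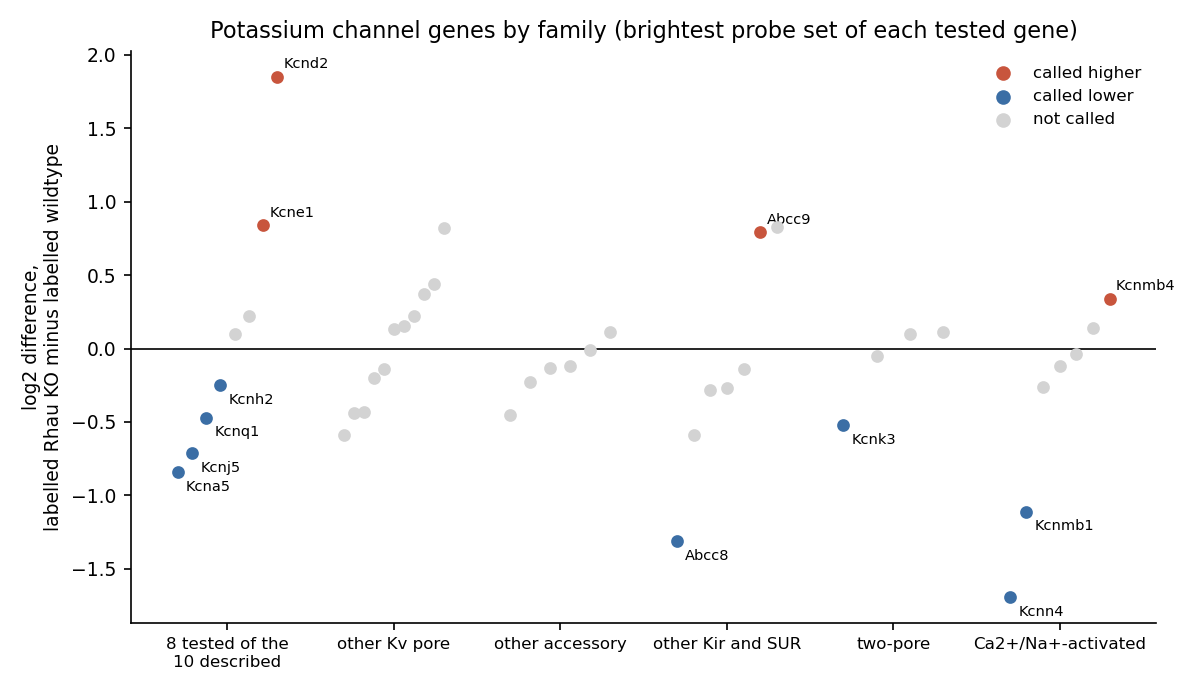
Log2 difference, labelled Rhau KO minus labelled wildtype, of the brightest probe set of each tested potassium channel gene, by family, with genes sorted by value and called genes named. Of the 8 described genes tested 6 are called, and of the 35 others 6.

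Genes linked to the control or placement of these channels changed in part. Of 11 tested transcription factors of heart and conduction tissue listed as possible regulators of these channels, 1 rose and 5 fell. Irx3, an Iroquois factor of the conduction system, rose by 0.67 (adjusted p = 2.05e-04 by limma). Nkx2-5, a homeobox factor of heart muscle, changed by -1.29 (adjusted p = 2.15e-06 by limma). Hey2, a transcriptional repressor found in the compact ventricular wall, changed by -1.32 (adjusted p = 9.07e-06 by limma). Tbx3 fell as given above, and the other genes called lower changed by no more than 0.37 in size. Of 5 tested proteins that anchor or modify channels, 2 fell. Dlg1, a scaffold that binds several of these channels, changed by -0.48 (adjusted p = 4.90e-04 by limma), though the mean of all its probe sets gave -0.21 with no call. Cav3, the caveolin of muscle, changed by -0.37 (adjusted p = 0.0197 by limma), and its call was lost without replicate 1 (-0.31) or 2 (-0.39) labelled wildtype. Of 8 tested sodium, calcium and pacemaker channel genes, Cacna1g, a T-type calcium channel, rose by 0.57 and Scn4b, a sodium channel accessory subunit, fell by 1.11. Cacna1g lost its call in 5 of 6 fits without 1 array, all but that without replicate 2 labelled Rhau KO (0.48 to 0.63), and Scn4b without replicate 1 (-0.97) or 3 (-1.11) labelled wildtype. Scn4b had a mean of 5.80 under the Rhau KO label, below the filter level, and entered the test through its high group.

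The other marker lists gave the following counts. Of 12 endothelial markers 5 rose and 0 fell, among them Kdr by 0.63, Cdh5 by 0.50, Npr3 by 0.41 and Sox18 by 0.36, with summed signals of 14582 to 15482 in wildtype-labelled hearts and 16537 to 17942 in hearts labelled Rhau KO. Sox18 kept its call only without replicate 3 of the wildtype label, and stood at 0.27 to 0.40 without any other array. Of 8 macrophage and leukocyte markers 2 rose, Lyz2 by 2.98 and Mrc1 by 0.43, and 0 fell, with summed signals of 2806 to 3059 against 3844 to 4684. Mrc1 kept its call only without replicate 1 of the Rhau KO label, and stood at 0.39 to 0.46 without any other array. Of 6 ventricular markers 2 rose, Prdm16 by 0.90 and Mpped2 by 0.63, and Hey2 fell, with summed signals of 63877 to 64618 against 57197 to 69563. Of 6 epicardial markers 0 passed with limma and 3 had an unadjusted p under 0.05; the largest differences were -0.31 for Aldh1a2 and -0.20 for Upk1b. Of 3 tested liver, lung and gut epithelium markers 0 passed and 2 had an unadjusted p under 0.05, Epcam at -0.74 and Ttr at -0.41. The summed signals were 10455 to 11862 against 9853 to 10307 for the epicardial and 472 to 530 against 365 to 522 for the epithelial list. No marker of these lists was at 0, and their part in the channel differences was not tested.

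The 3 described genes of largest called change were also matched by profile. Among 22796 probe sets that name 1 gene, those most similar over the 6 arrays were looked up. For Kcnd2 these were Rap1b, She and Coq9, with Pearson r from 0.9975 to 0.9981. For Kcne1 they were Ttc3, Hells and Pgap1 (0.9967 to 0.9993), and for Kcna5 Sytl2, Lsp1 and Cycs (0.9974 to 0.9984). All points share the same 6 arrays, and most of each profile is the step between the labels. Likeness on this scale ignores size: the log2 difference of Rap1b was 0.18 beside 1.85 for Kcnd2.

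The called differences were also set beside the Y-linked signal. In the 3 arrays where Xist and Y-linked transcripts were both high, 1 of them labelled wildtype and assumed to vary like the others, Kcnd2 differed by 1.57 and 1.41, Kcne1 by 0.82, Kcna5 by -0.77 and Kcnj5 by -0.70. Kcnh2 stood at -0.27 there and the second Kcne1 probe set at 0.53. The spread in that fit comes from the 2 arrays labelled Rhau KO alone, so these values are a description and support no call. With Y-linked signal as covariate the differences were 1.47 and 1.38 for Kcnd2, 0.97 for Kcne1, -0.82 for Kcna5, -0.75 for Kcnj5 and -0.31 for Kcnh2. Of the 12 tested probe sets 0 passed in that fit by limma and 6 had an unadjusted p under 0.05. In it the SE of the brighter Kcnd2 probe set was 0.422 in place of 0.194, and 28 probe sets rose and 110 fell over the whole array.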

How the data were processed

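The deposited table holds 1 log2 value per probe set and array for 6 arrays. The authors computed these log2 signals with MAS5, per the submitters' processing notes, which give no version. On all arrays the linear signal has a 2% trimmed mean of 500. The values were used as deposited. All 6 columns matched a sample. Of 45101 probe sets, 64 controls were left out. The platform annotation names 1 gene for 34945, several for 932 and none for 9160. Names were updated through Entrez identifiers against RefSeq genes of GRCm38.p6, which holds 34741 of the 34945.

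Probe sets with a mean at or above the 40th percentile (log2 5.90), 27022 in number, were fitted with limma 3.58.1 in R 4.3.3 (lmFit, eBayes with trend). Each difference is labelled Rhau KO minus labelled wildtype, tested two-sided with Benjamini-Hochberg adjustment at 0.05, and each fold is its size on the linear scale. Gene lists were counted with the brightest probe set per gene. The named genes are all members, Dhx36, and in each list up to 4 called genes of largest change, or up to 2 without a call; Kcnj8 and Kcnj11 are additions. The procedure was tested on simulated arrays. The members and lists were chosen with earlier results of these data known. Detection calls were not used here. Tables and plots used Python 3.11.15, pandas 2.3.3 and matplotlib 3.10.9.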

Additional observations from a re-analysis of the deposited data

How the results depend on the processing

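The counts of 4 probe sets higher and 4 lower were recomputed under quantile normalization, pseudocounts of 1 and 64, centring on the median, no filter, a stricter filter, 1 value per gene, no trend, array weights, a replicate block, each array left out, and the Y-linked signal. The higher count was 1 under a filter on the lowest 60%, which removes the Kcnd2 probe sets and 1 of Kcne1. It was 2 with the brightest probe set per gene and 2 with a gene's probe sets averaged, where a gene counts once. The lower count was 2 with eBayes without trend and 2 in the 3 arrays where Xist and Y-linked transcripts were both high, a fit whose spread comes from 2 arrays alone; Kcnq1 and Kcnh2 were lost in both. With Y-linked signal as covariate both counts were 0. Without 1 array the higher count was 3 to 4 and the lower count 2 to 3. With the replicate block the counts were 3 and 4, the second Kcne1 probe set being lost (adjusted p = 0.0788 by limma), and over all probe sets 1684 rose and 1760 fell, against 1824 and 1858. Same-numbered arrays did not deviate together (correlations 0, 0.04 and 0.01), so the main fit used no pairing. This cannot exclude a pairing of small effect. Over all probe sets, median centring gave 1007 higher and 2528 lower, no filter 1295 and 1506, eBayes without trend 886 and 903, and the arrays with both signals 501 and 515. Without 1 array these counts were 1046 to 1283 and 1139 to 1574.

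Differences that changed sign were few. Kcnd3 stood at -0.05 and -0.00196 without replicate 1 or 2 labelled Rhau KO, and at up to 0.36 without another array. Kcne4 stood at 0.21 with the Y-linked covariate and at 0.21 in the arrays with both signals. With that covariate Upk1b stood at 0.02, Ttr at 0.26, Xist at 2.70, Eif2s3y at -2.07, Kdm5d at -0.93 and Uty at -0.83, and Upk1b was 0.01 with probe sets averaged. The covariate is the mean linear signal of Eif2s3y, Kdm5d and Uty, each scaled to its highest array. Their own values in that fit are therefore not read. For the other genes the cause was not tested. The changes of the 3 subunit pairs of tested genes kept their direction in every alternative run for them. Without 1 array this was fixed in advance, since the arrays of the labels did not overlap. The pairs were not run with the Y-linked covariate or in the arrays with both signals. The mean of all probe sets could not be had for Kcnip2, and signals below 5.90 limit what can be said of Kcnip2 and Kcnj2.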
